A study of Homo sapiens with 6 samples.

Results

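The teneurins TENM1 to TENM4 and the latrophilins ADGRL1 to ADGRL3 are 7 of the 27469 genes with values in the deposited table, and all 7 were found there under these symbols. The set is a gene family, chosen by a measured value of TENM3: in an earlier look at these libraries its p was among the smallest on the lower side of the IL-33 comparison. The IL-33 against Control values of the set are therefore given as a description, with no test of their own. The low-count filter was passed by 3 members, TENM2, TENM3 and ADGRL1. TENM4, ADGRL2 and ADGRL3 had at most 13 counts in any library, and TENM1 had none.

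RNA was read from HMC3 cells, an immortalised human line labelled as microglia, in 3 libraries from cells given interleukin-33 (IL-33) for 24 h and 3 Control libraries from the same line. No genotype, transfection or other agent is named for either group, and the dose of IL-33 is not given in the sources used here. HMC3 is a single line carrying a viral oncogene, so that all 6 libraries share 1 genetic background, and the labels do not state whether replicates were separate cultures, so that spread between libraries may be technical. IL-33 signals through the receptor ST2 and the accessory protein IL1RAP to NF-kB and MAP kinases.

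Teneurins are very large transmembrane proteins with a short tail inside the cell and, outside it, EGF-like repeats and a barrel-shaped domain. Latrophilins are adhesion G protein-coupled receptors, first known as targets of a spider venom toxin, that bind teneurins and FLRT proteins on neighbouring cells. In the brain these contacts guide axons and help to choose which synapses form, while their role in microglia is less well described.

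Library totals ran from 8294747 to 10217529 counts with IL-33 and from 5739947 to 9933395 counts in Control. The shallowest library, Control 3, differed most from the rest, at 55.0 on the first principal component against -18.0 to 0.86 for the other 5 libraries. Of 12 microglia and macrophage markers, 6 had 0 counts in all libraries (ITGAM, CX3CR1, P2RY12, TMEM119, SPI1 and TYROBP), and none reached 10 CPM (CPM, counts scaled to a library of 1e6 after TMM normalization). The 12 summed to 3.89 to 6.84 CPM with IL-33 and 3.57 to 8.32 CPM in Control. CD68 and CD14 passed the low-count filter, at 2.75 and 1.43 CPM over the 6 libraries. The 10 fibroblast, pericyte and mesenchymal markers summed to 3950 to 4180 CPM with IL-33 and 3530 to 4290 CPM in Control, most of it VIM, TAGLN and COL1A1, with COL3A1, LUM and ACTA2 at 0. Of 10 neuronal markers, 5 were at 0 (STMN2, GAP43, ELAVL4, NEFL and DCX), and the list summed to 4.98 to 5.54 CPM with IL-33 and 1.27 to 2.89 CPM in Control, most of it SNAP25. This neuronal sum was higher in the IL-33 libraries but rests on low counts, and the difference was not tested. Its part in the teneurin values below was not tested either.

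TENM2 and TENM3 were the teneurins with counts in every library, and they lay far apart in level. The windows around their RefSeq starts are shown because they differ in a feature that played no part in choosing the genes, the content of CpG dinucleotides, which are printed in capitals. Each runs from 250 bases before to 50 bases after the start, 5′ to 3′ on the + strand of GRCh38.p14, at chr5:167072992-167073291 for TENM2 and chr4:182143713-182144012 for TENM3.
TENM2: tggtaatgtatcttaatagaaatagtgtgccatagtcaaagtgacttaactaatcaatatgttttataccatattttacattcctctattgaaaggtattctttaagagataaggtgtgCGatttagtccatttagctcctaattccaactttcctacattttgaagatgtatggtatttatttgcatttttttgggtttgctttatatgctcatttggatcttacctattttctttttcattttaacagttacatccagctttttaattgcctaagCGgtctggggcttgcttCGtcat
TENM3: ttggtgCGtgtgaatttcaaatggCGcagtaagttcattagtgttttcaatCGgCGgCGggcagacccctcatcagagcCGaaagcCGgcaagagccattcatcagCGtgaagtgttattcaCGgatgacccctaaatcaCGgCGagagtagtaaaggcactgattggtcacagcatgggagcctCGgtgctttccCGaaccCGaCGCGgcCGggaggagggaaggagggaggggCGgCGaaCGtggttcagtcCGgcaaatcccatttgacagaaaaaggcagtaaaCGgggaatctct
The TENM2 window held 3 CpG, and 19.0% of 27305 RefSeq promoter windows held fewer. The TENM3 window held 22 CpG, with fewer in 62.4% of the windows. The TENM2 start lies 211.6 kb upstream of the GENCODE 29 gene start, and no GENCODE 29 transcript of TENM2 begins inside the window, so the start used in HMC3 may be another one, which 3' tags cannot show. Neither window held the AP-1 motif TGANTCA (its own reverse complement in the N pattern) or the NF-kB consensus on either strand. Of all windows, 7.76% held the first and 10.83% the second. RefSeq windows were found for 6 of the 7 members, all but ADGRL1.

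All 7 genes are protein coding. On GRCh38 with GENCODE 29, TENM2 spans 979.4 kb (chr5:167284799-168264157, + strand), TENM3 659.0 kb (chr4:182143987-182803024, + strand) and TENM4 788.1 kb (chr11:78652831-79440948, - strand). TENM1 lies on the X chromosome over 587.9 kb (chrX:124375903-124963817, - strand). ADGRL1 is compact at 58.4 kb (chr19:14147743-14206187, - strand), against 686.3 kb for ADGRL2 (chr1:81306160-81992436, + strand) and 877.1 kb for ADGRL3 (chr4:61201258-62078335, + strand). The 3 members that could be tested have few neighbours with counts in the deposited table. Of 11 genes annotated over TENM2, 1 is listed there, on the opposite strand, with 13 counts. Of 7 over TENM3, 1 is listed, with 0 counts, and none over ADGRL1 is listed. Overlapping genes that are not listed could not be checked. TENM1, with 0 counts, overlaps STAG2, a cohesin subunit gene on the opposite strand with 9537 counts. The overlap takes in the annotated 3' end of the TENM1 gene. The strand setting of the counting is not given, so whether tags there could be counted for TENM1 is not known.

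**Figure D1:**
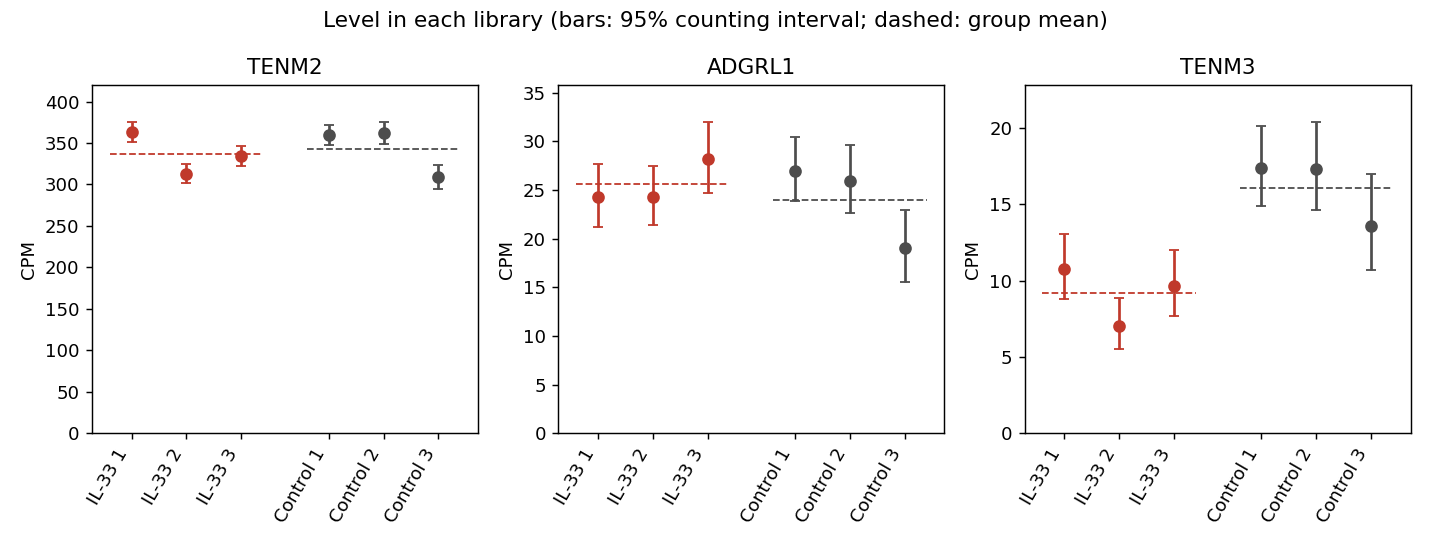
CPM (y axis, from 0) of TENM2, ADGRL1 and TENM3 in each IL-33 library (red) and each Control library (grey), with 95% counting intervals as bars and group means as dashed lines. In TENM3 the 3 IL-33 libraries sit between 7.03 and 10.8 CPM, below the 3 Control libraries at 13.6 to 17.4 CPM, while the groups overlap in TENM2 and ADGRL1.

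TENM2 was the main teneurin transcript of HMC3 and its level was close in the 2 groups. It measured 363, 313 and 334 CPM in the IL-33 libraries, against 359, 362 and 309 CPM in the Control libraries. The lowest value of all was Control 3, and the groups overlapped. The means were 336.5 ± 24.9 CPM with IL-33 and 343 ± 30.02 CPM in Control (SD, n = 3 each), a log2 fold change of -0.03 ± 0.10 (SE) with a 95% interval from -0.24 to 0.18. By mean level TENM2 ranked 437 of 12125 tested genes. The sign of its small difference turned when IL-33 2, Control 1 or Control 2 was left out (0.02, 0.005 and 0.01), and without Control 3 it was -0.10.

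TENM3, the teneurin known from mouse work for matching axons to their targets in the visual system and hippocampus, was lower in the IL-33 libraries. It measured 10.8, 7.03 and 9.67 CPM in the IL-33 libraries, against 17.4, 17.3 and 13.6 CPM in the Control libraries. The groups did not overlap, with IL-33 1 and Control 3 the nearest pair. The means were 9.15 ± 1.92 CPM with IL-33 and 16.1 ± 2.18 CPM in Control (SD, n = 3 each), and the log2 fold change was -0.82 ± 0.26 (SE), a level with IL-33 of 0.566 times that in Control. Groups lay apart in this direction in 3.51% of tested genes. This is the contrast by which TENM3 was picked, so its place as the second lowest log2 fold change among the 8331 genes at 10 CPM or more supports nothing further. In a bulk culture, fewer cells with the transcript and less of it per cell cannot be told apart.

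The counts behind these TENM3 values were small, 101, 72 and 82 with IL-33 and 175, 144 and 75 in Control. The separation from Control 3 appears only after scaling for depth, since 75 counts is fewer than in IL-33 1 and IL-33 3. The 95% counting interval of IL-33 1, 8.77 to 13.1 CPM, overlapped that of Control 3, 10.7 to 17.0 CPM. The intervals of Control 1 and Control 2, from 14.9 and 14.6 CPM upward, lay above those of all 3 IL-33 libraries. Such intervals hold counting error alone, and since PCR copies cannot be told from separate molecules in these counts, they may be too narrow. Without Control 3 the log2 fold change of TENM3 was -0.93. Control 3 is the Control library nearest the IL-33 values, so leaving it out could hardly bring the groups together, and nothing is read from this.

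The same TENM3 counts can be set against TENM2 within each library, which needs no normalization. This restates the contrast by which TENM3 was picked and adds no separate evidence. The ratio of TENM2 to TENM3 counts was 33.7, 44.5 and 34.5 in the IL-33 libraries, against 20.7, 20.9 and 22.7 in the Control libraries. The Control libraries, Control 3 among them, lay close together, and the IL-33 libraries all lay above them with a wider spread. As a share of all teneurin counts, TENM3 made up 2.88%, 2.20% and 2.81% in the IL-33 libraries, against 4.61%, 4.55% and 4.21% in the Control libraries. Exact Clopper-Pearson 95% intervals reached up to 3.49%, 2.76% and 3.48% with IL-33 and down to 3.97%, 3.85% and 3.33% in Control, so that they overlapped for Control 3 alone. TENM2 held 95.1% to 97.8% of teneurin counts, and the summed teneurin level overlapped between the groups. It was 373, 320 and 344 CPM with IL-33 and 377, 380.5 and 322 CPM in Control.

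**Figure D2:**
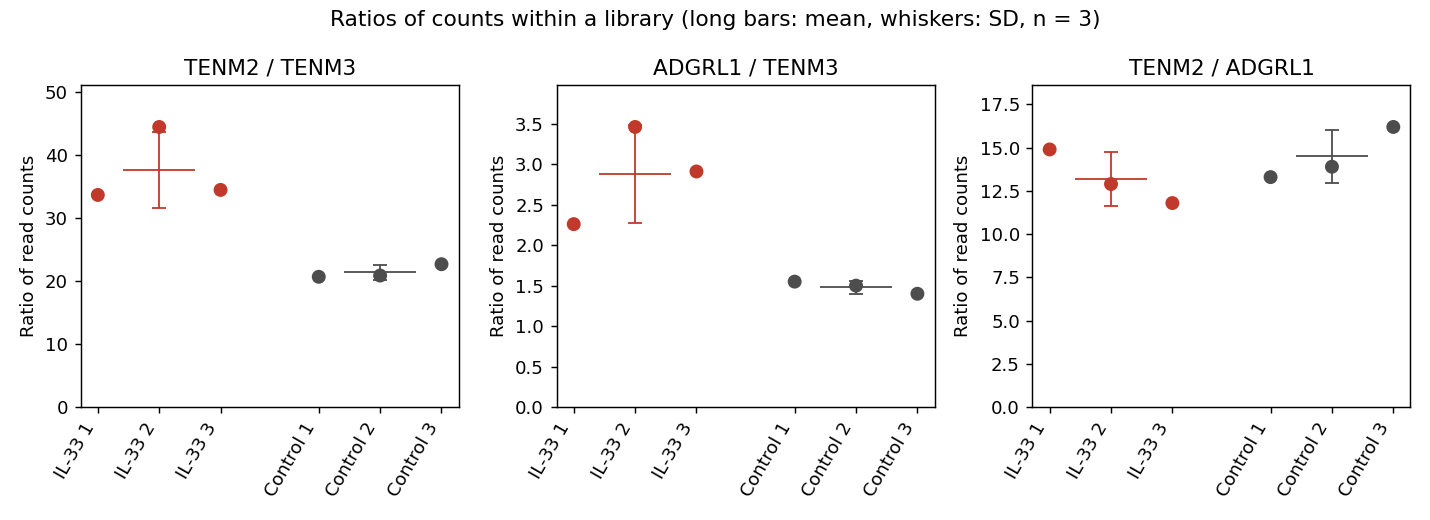
Ratios of read counts between members within each library (y axes, from 0), for IL-33 (red) and Control (grey), with group means and SD (n = 3). TENM2 / TENM3 and ADGRL1 / TENM3 have as denominator the gene that was picked for its lower level with IL-33, and their separation follows from that choice. TENM2 / ADGRL1, free of it, overlaps between the groups (11.8 to 14.9 with IL-33 and 13.3 to 16.2 in Control).

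ADGRL1, also called latrophilin 1, was the sole latrophilin measured well enough to test, and its level was close in the 2 groups. It measured 24.3, 24.3 and 28.2 CPM in the IL-33 libraries, against 27.0, 26.0 and 19.0 CPM in the Control libraries. Control 3 was the lowest of all and the groups overlapped. The means were 25.6 ± 2.23 CPM with IL-33 and 24.0 ± 4.36 CPM in Control (SD, n = 3 each), with a log2 fold change of 0.08 ± 0.19 (SE) and a 95% interval from -0.32 to 0.49. Without Control 3 it was -0.05, the opposite sign. The intervals of TENM2 and ADGRL1 both lay within -1 to 1, as did those of 73.4% of tested genes, so a change of 2-fold or more in either was outside the interval.

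The ratio of ADGRL1 to TENM3 counts, which carries the TENM3 difference that chose the set over a level of ADGRL1 that overlapped between groups, was 2.26, 3.46 and 2.91 in the IL-33 libraries, against 1.55, 1.5 and 1.4 in the Control libraries. TENM2 to ADGRL1, the ratio free of TENM3, was 13.2 ± 1.57 with IL-33 and 14.5 ± 1.55 in Control (SD, n = 3 each), which overlapped.

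Levels of different members can be compared without regard to transcript length, since the kit reads a tag at the 3' end, although a tag beyond the annotated end is not counted. The order TENM2, ADGRL1, TENM3 held in 6 of 6 libraries. TENM2 was 11.8 to 16.2 times ADGRL1. ADGRL1 and TENM3 were the nearest neighbours, and in Control 3 their counting intervals overlapped (15.5 to 23.0 and 10.7 to 17.0 CPM). ADGRL3, TENM4 and ADGRL2, with means over the 6 libraries of 0.377, 0.260 and 0.158 CPM, did not differ among themselves beyond their spread.

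**Figure D3:**
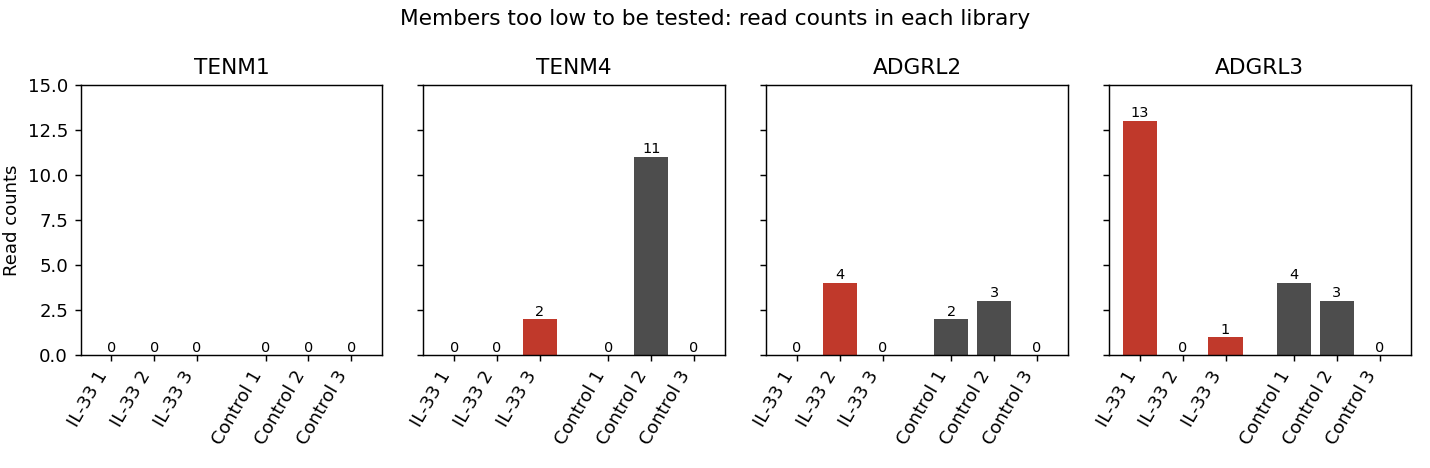
Read counts (y axis) of the 4 members that did not pass the low-count filter, in each IL-33 library (red) and Control library (grey). TENM1 is at 0 throughout, and most counts of TENM4 and of ADGRL3 come from 1 library each.

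The remaining members were at or near the detection limit. TENM1 had 0 counts in every library, so that a limit of 3 counts per library corresponds to 0.293 CPM in IL-33 2, the deepest library, and 0.543 CPM in Control 3, the shallowest. The upper ends of the 95% counting intervals were 0.360 and 0.6675 CPM in those libraries. These limits hold only if tags in the overlap with STAG2 could be counted for TENM1. TENM4 had 0, 0 and 2 counts in the IL-33 libraries, against 0, 11 and 0 in the Control libraries, so that Control 2 held nearly all of them. ADGRL2 had 0, 4 and 0 counts with IL-33, against 2, 3 and 0 in Control. ADGRL3, a latrophilin studied in attention deficit hyperactivity disorder, had 13, 0 and 1 counts with IL-33, against 4, 3 and 0 in Control, with IL-33 1 holding most. In none of the 4 did the groups separate, and no fold was computed.

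By edgeR's quasi-likelihood test over 12125 genes, 0% passed a Benjamini-Hochberg adjusted p of 0.05, and 0 of the 3 tested members did. At an unadjusted p under 0.05 the count was 1 member by each of edgeR, DESeq2 and limma-voom, beside 2.43% of all tested genes by edgeR. That member is TENM3, whose p chose the set, so the count was fixed by the choice and nothing is read from it. None of the 3 tools called a member. Groups that did not overlap were found in 1 of the 3 tested members, again TENM3, and in 8.06% of all tested genes. That count too was all but fixed by the choice, and nothing is read from it. The median log2 fold change over all tested genes was -0.005, and TENM3 lay between the 1st and 5th percentile of that distribution, -0.91 and -0.45.

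**Figure D4:**
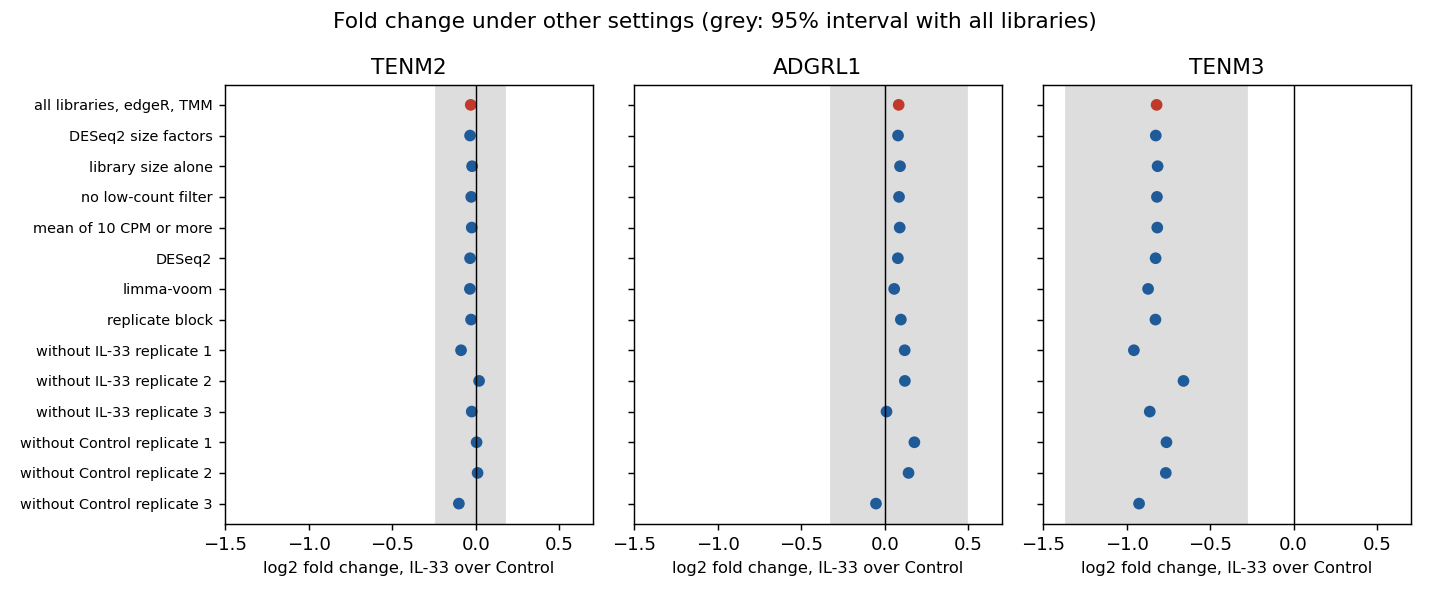
Log2 fold change of IL-33 over Control (x axes) for TENM2, ADGRL1 and TENM3 with all libraries (red) and under each other setting or with a library left out (blue), with the 95% interval from all libraries in grey. TENM3 stays between -0.96 and -0.66, while TENM2 and ADGRL1 lie on both sides of 0.

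By correlation of log2 CPM over the 6 libraries, both groups together, the genes at 10 CPM or more with the pattern most like that of TENM3 were SHROOM3 (Pearson's r of 0.972), JMJD1C (0.967) and CTDP1 (0.957). Of 8330 genes compared, 30 exceeded an r of 0.9. For TENM2 the closest were CENPS (0.994), MARK4 (0.978) and PRKCI (0.973), with 35 genes over 0.9. For ADGRL1 they were ANAPC2 (0.996), KIAA0907 (0.994) and AK6 (0.993), with 420 genes over 0.9. The values were scaled for library depth, and TENM2 and ADGRL1 were both lowest in Control 3. For TENM3, r over both groups carries the gap between them by which TENM3 was picked. Genes with that same gap rank high for this reason, so the names add no separate evidence. Among the members, r was 0.55 between TENM2 and TENM3, 0.60 between TENM2 and ADGRL1 and 0.00 between TENM3 and ADGRL1, as a description of 6 points.

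The FLRT and UNC5 proteins, which join latrophilins and teneurins in complexes at the cell surface, were barely present. Among 7 genes, UNC5B and UNC5D had no counts at all, UNC5A and UNC5C had 1 and 4 counts, in IL-33 1 alone, and FLRT2 was the sole gene tested. It measured 3.09, 2.05 and 1.06 CPM in the IL-33 libraries, against 2.09, 0.601 and 1.09 CPM in the Control libraries, which overlapped. FLRT1 had 48 counts over the 6 libraries and FLRT3 had 1. The receptor partners that HMC3 did express were other surface proteins. NRXN3, a neurexin of the family that includes a latrophilin ligand, measured 24.1, 19.8 and 20.5 CPM in the IL-33 libraries, against 15.7, 13.8 and 19.5 CPM in the Control libraries. The IL-33 values lay above the Control values, with Control 3 just under IL-33 2, and the log2 fold change of 0.40 ± 0.22 (SE) did not pass. DAG1, which encodes dystroglycan, had -0.02 ± 0.18 and the receptor phosphatase gene PTPRS 0.17 ± 0.20.

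Genes for proteins that bind the teneurin tail inside the cell or could cleave teneurins were mostly expressed, and 4 of 7 were tested. MBD1, a methyl-CpG binding protein reported as a partner of the TENM1 tail, measured 33.5, 24.3 and 24.99 CPM in the IL-33 libraries, against 22.5, 20.6 and 12.7 CPM in the Control libraries. The groups did not overlap, Control 3 was the lowest, and the log2 fold change of 0.55 ± 0.23 (SE) did not pass (adjusted p = 0.999 by edgeR). FURIN, a proprotein convertase, measured 26.3, 21.1 and 21.2 CPM with IL-33, against 15.9, 14.4 and 26.2 CPM in Control, where Control 3 lay within the IL-33 range. The related PCSK7 measured 20.9 ± 2.36 CPM with IL-33 and 26.0 ± 2.09 CPM in Control (SD, n = 3 each), a log2 fold change of -0.31 ± 0.19 that did not pass, although the highest IL-33 library lay under the lowest Control library. The transcription factor gene ZIC1, whose activity the tail of a teneurin was reported to repress, had -0.09 ± 0.24.

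Of 12 genes for latrophilin scaffolds and G alpha subunits, 9 were tested and 8 reached 10 CPM, all of them G alpha subunits. GNAS, which stimulates adenylyl cyclase, averaged 941 ± 121 CPM with IL-33 and 957 ± 264 CPM in Control, and GNAI2, which inhibits it, 646 ± 13.6 and 646 ± 75.3 CPM in the same order (SD, n = 3 each). In GNAS, Control 3 was the lowest library at 661 CPM, against 1166 and 1046 CPM in Control 1 and Control 2. GNA12 and GNA13 had log2 fold changes of 0.05 ± 0.16 and -0.03 ± 0.16 (SE). GNAI1 had -0.30 ± 0.25 and GNA11 -0.12 ± 0.10, and neither passed. The GNA11 groups did not overlap, with IL-33 below Control, as in 3.51% of all tested genes. The intervals of 8 of the 9 lay within -1 to 1. The SHANK scaffolds that bind the latrophilin tail were low, with SHANK2 at 4.51 ± 1.33 CPM with IL-33 and 5.89 ± 2.63 CPM in Control, and SHANK3 at 53 counts over all libraries.

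Other adhesion receptors of the same kind as latrophilins were sparse. Of 28 such genes found, 10 had 0 counts in all libraries and 8 were tested. Of the 8, 6 had a log2 fold change below 0, at a median of -0.27 against -0.005 for all tested genes. Only 3 of the 8 reached 10 CPM and 2 had intervals within -1 to 1, so the median rests largely on low counts. The 2 above 0 included CELSR3, at 0.41 ± 0.42 (SE) and a mean of 5.10 CPM over the 6 libraries. CELSR2, a cadherin-type adhesion receptor, measured 11.7, 11.035 and 10.8 CPM in the IL-33 libraries, against 14.3, 19.0 and 14.3 CPM in the Control libraries. The groups did not overlap, and its log2 fold change was -0.50 ± 0.24 (SE), which did not pass. CELSR1 had -0.11 ± 0.29 and ADGRG6, an adhesion receptor needed for myelination by Schwann cells in mouse and zebrafish, -0.21 ± 0.29. Of 36 other synaptic adhesion genes, 19 were tested, 14 with a log2 fold change above 0 and 5 below, at a median of 0.14 against -0.005 for all tested genes. Only 8 of the 19 reached 10 CPM and 9 had intervals within -1 to 1, so this median also rests in large part on low counts. The best measured, PTPRF, CADM1 and CDH2, had 0.09 ± 0.15, 0.08 ± 0.12 and 0.04 ± 0.11. Under 10 CPM the 2 most abundant of this list were CLSTN2, at -0.67 ± 0.34 (SE), and PTPRD, which can bind the IL-33 co-receptor IL1RAP at synapses. The PTPRD values were known when it was named. PTPRD measured 3.84, 5.57 and 7.07 CPM with IL-33, against 7.94, 7.09 and 13.2 CPM in Control. The highest IL-33 library nearly reached the lowest Control library. IL1RAP itself averaged 5.37 ± 2.45 CPM with IL-33 and 6.23 ± 0.905 CPM in Control (SD, n = 3 each).

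Over all these lists 45 genes were tested, 25 with a log2 fold change above 0 and 20 below, at a median of 0.04. None passed in either direction by edgeR's quasi-likelihood test, by DESeq2 or by limma-voom, and the smallest adjusted p by edgeR was 0.999. By edgeR 3 had an unadjusted p under 0.05, MBD1 and EFNB1 higher and PTPRD lower, beside 1.45% of all tested genes higher and 0.981% lower. The IL-33 values all lay above the Control values in 3 of the 45 genes and all below in 4, beside 4.54% and 3.51% of all tested genes. EFNB1 was named after its values were seen.

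**Figure D5:**
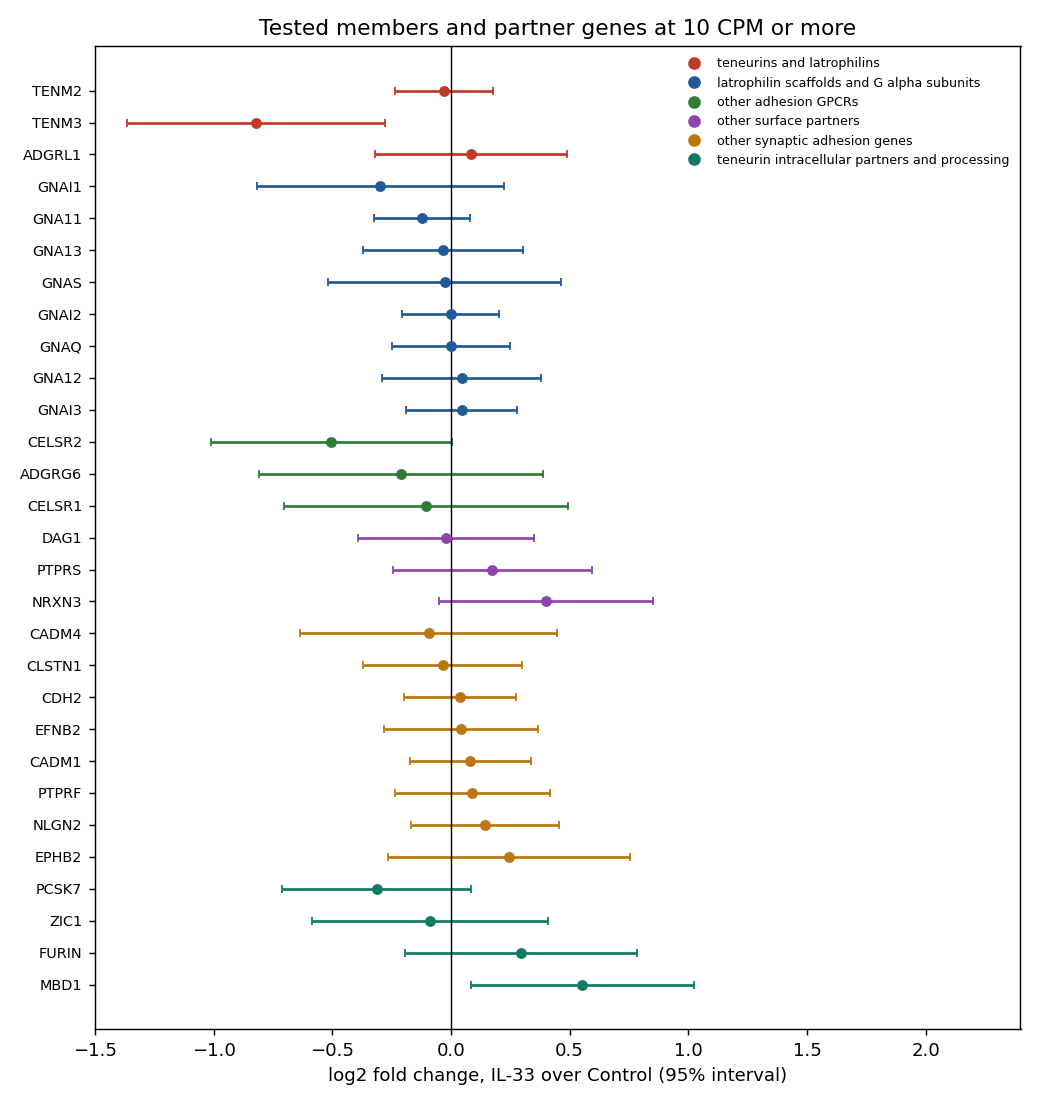
Log2 fold change of IL-33 over Control (x axis) with 95% intervals for the 3 tested members and the 26 tested list genes at 10 CPM or more, coloured by list. Most intervals include 0, and TENM3 has the lowest value shown, at -0.82.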

How the data were processed

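RNA was extracted with TRIZOL and read with the Lexogen QuantSeq 3' FWD kit, per the labels' protocols. The authors deposited 1 table of raw read counts per gene symbol, a column per library. Per the submitters' processing notes, the tools were STAR 2.7.5a, HTSeq 0.6.1 and edgeR and the build hg38. The sources used here do not give the annotation, the strand setting or any filter of the counting.

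Of 27470 rows, 1 had no values and was left out. Genes passing filterByExpr (count minimum 10, total minimum 15), 12125 in number, entered edgeR 4.0.16 (R 4.3.3) with TMM scaling, the robust quasi-likelihood test on group alone and Benjamini-Hochberg adjustment over all tested genes. CPM used TMM-scaled totals, with a prior count of 2 for log2 CPM. Alternatives were DESeq2 1.42.0, limma 3.58.1 (voom), other scalings, filters, a replicate block and each library left out. The procedure was also run on simulated counts, and no result of that run is given or relied on here. Libraries of a group differed beyond sampling noise (chi-square per degree of freedom 5.61 to 16.5), so none were merged.

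Members and lists were chosen with earlier results of these data known. Within the lists, tested genes at 10 CPM or more and the 2 most abundant others per list could be named. Of 104 listed genes, 97 were found, 1 of them an antisense gene of a member (ADGRL3-AS1, at 0 counts). Other genes were named to describe a list after their values were seen. Astrocyte, oligodendrocyte and endothelial markers summed to 79.5 to 82.9, 4.95 to 7.35 and 0 to 2.02 CPM with IL-33, and to 81.1 to 97.4, 5.36 to 6.51 and 0 to 0.361 CPM in Control. Positions came from GENCODE 29 on GRCh38 and promoter windows from RefSeq on GRCh38.p14, both matched by symbol. Matplotlib 3.10.9 drew the figures.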

Additional observations from a re-analysis of the deposited data

How the results depend on the processing

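TENM3 kept its direction under all 13 alternatives, with log2 fold changes from -0.87 to -0.81 under other scalings, filters, tools and the block, and from -0.96 to -0.66 with a library left out. Its groups stayed apart under the 10 alternatives for which this was recorded, but these only rescale, refilter or drop a library from the same counts. That outcome was all but fixed beforehand. TENM3 was picked by this contrast, so neither its direction nor its separation here is further evidence. TENM2 ran from -0.10 to 0.02 and ADGRL1 from -0.05 to 0.18, with the sign turning in 3 of 13 and 1 of 13 alternatives, each time with a library left out. The count of members past the adjusted threshold was 0 under every alternative, and 1 (TENM3) at an unadjusted p under 0.05. Over all genes the count of 0 became 3 without the low-count filter, 1 with DESeq2 and 295 at an unadjusted p under 0.05, and ran from 0 to 6 with a library left out, the 6 arising without Control 3. None of those calls at the adjusted threshold was a member or a listed partner, and the cause was not tested. With the replicate number as a block, 0 genes and 0 members were called, and TENM3 had a log2 fold change of -0.83. Same-numbered libraries did not deviate together (correlations of -0.086, 0.027 and -0.136), and the labels do not say that numbers pair them. At 72 to 175 counts for TENM3 and at most 13 for 4 other members, depth limits what these libraries can show.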
